A study of Homo sapiens with 4 samples.

Results

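The 10 genes described here encode enzymes that make serine, asparagine and proline, that carry one-carbon units inside mitochondria, or that convert mitochondrial oxaloacetate to phosphoenolpyruvate. They are PHGDH, PSAT1, PSPH, SHMT2, MTHFD2, MTHFD1L, ALDH1L2, ASNS, PYCR1 and PCK2. They were chosen by symbol, without a cut on any measured value but with earlier results of these data known. All 10 were found among the 16834 genes of the expression table. The study compared neobractatin (NBT), which is isolated from the plant Garcinia bracteata, with trametinib, an inhibitor of the kinases MEK1 and MEK2, in a pancreatic ductal adenocarcinoma line. The 4 RNA libraries came from untreated wild-type cells (control), cells given 1 µM NBT, cells given 5 µM trametinib, and cells given both drugs at those doses (combination). Exposure lasted 12 h per the study's methods. Each condition had 1 library, so no difference below has a replicate check and no p-value is given.

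Serine is built from a glycolytic intermediate by PHGDH, PSAT1 and PSPH acting in sequence. SHMT2 then moves a carbon from serine onto folate in the mitochondrion. MTHFD2, MTHFD1L and ALDH1L2 oxidise that carbon or release it as formate or carbon dioxide, and the oxidation steps yield the reduced cofactors NADH or NADPH. ASNS makes asparagine from aspartate, PYCR1 performs the last step of proline synthesis, and PCK2 is the mitochondrial phosphoenolpyruvate carboxykinase. Many of these genes are known as targets of ATF4, a transcription factor whose translation increases when the kinases that phosphorylate eIF2α are activated by amino acid shortage, endoplasmic reticulum stress or mitochondrial stress.

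The libraries were of similar size, with sums of estimated reads over genes between 18776212 in control and 19614763 in the combination. A count of 3 reads, used here as the floor of detection, corresponded to between 0.153 and 0.160 CPM, the share of reads scaled to a common library size. As a check of the trametinib label, 6 genes driven by the MAPK pathway (DUSP6, SPRY2, SPRY4, ETV4, ETV5 and FOSL1) were examined, and all 6 were called lower in both libraries with trametinib, with a median log2 ratio to control of -3.40 with trametinib and -2.93 with the combination. The markers of the line went against its label. MIA PaCa-2 is generally known for a deletion of CDKN2A, little CDH1 and much VIM, whereas CDKN2A stood between 249 and 342 TPM, a level scaled by transcript length and to a common sum, CDH1 between 51.2 and 86.9 TPM, EPCAM between 209 and 242 TPM, KRT8 between 1493 and 3799 TPM, KRT7 between 2.25 and 5.74 TPM and VIM between 11.5 and 26.4 TPM across the 4 libraries. PTPRC, PECAM1 and COL1A1, markers of leukocytes, endothelium and fibroblasts, were at most 1.69 TPM. The line is therefore given below only as labelled, and the part that its identity plays in any value was not tested. These markers also differed between the libraries, with VIM at 11.5 and 13.0 TPM without trametinib and 23.5 and 26.4 TPM with it, and KRT8 at 3799 and 3151 TPM without it and 2216 and 1493 TPM with it. Other markers followed NBT instead, with CDH1 at 85.4 and 86.9 TPM without NBT and 51.2 and 57.0 TPM with it, and ZEB1 at 1.38 and 1.04 TPM without it and 2.61 and 2.12 TPM with it.

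Promoter sequence was available in the RefSeq set for 6 of the 10 genes, namely PHGDH, PSAT1, MTHFD2, MTHFD1L, ASNS and PCK2 (GRCh38.p14, 250 bases before to 50 bases after each listed start). ATF4 pairs with C/EBP proteins on a composite element, for which the letters TGATGNAA were searched on both strands, where N is any base. Of the 6 genes, 2 held it (ASNS and MTHFD1L), and their sites are shown because they are the only places in these windows where the letters of that element occur. The capitals mark the 8 matching bases, and each stretch is written 5′ to 3′ on the strand of its gene.
ASNS: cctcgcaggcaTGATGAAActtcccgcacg
MTHFD1L: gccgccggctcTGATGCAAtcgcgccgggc
The ASNS stretch lies at chr7:97872458-97872487 on the minus strand, with the match 68 to 61 bases before 1 of the 2 listed starts. It overlaps an annotated exon of ASNS and the body of the processed transcript AC079781.5 on the same strand (GENCODE v29). The MTHFD1L stretch lies at chr6:150866346-150866375 on the plus strand and overlaps an MTHFD1L exon. The match there falls 90 to 83 bases before 1 listed start, 129 to 122 before another and 24 to 31 after yet another, so its position depends on the start that is used. Among all 35116 windows of this length, 3.62% held TGATGNAA. By gene the share was 4.46% of 27305 genes, and 3.31% of the 13337 of them that are in the expression table. Genes with several windows, such as these 2, had more chances to hold it. PSPH, SHMT2, ALDH1L2 and PYCR1 had no window. The absence of a match in PHGDH, PSAT1, MTHFD2 and PCK2 concerns only these letters in these windows.

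Across the set, NBT had a larger ratio to control than trametinib for 9 of the 10 genes, and the median gene of the combination library stood close to the NBT library. For PSPH, among those 9, the NBT and trametinib libraries did not differ beyond counting error. The share of all genes with this order was not computed. A gene was called higher or lower when its log2 ratio between 2 libraries reached 1 in size and an exact binomial comparison of its reads passed a false discovery rate of 0.05, a rule that compares libraries and not conditions. With NBT, 5 of the 10 genes were called higher than in control (ASNS, PCK2, PSAT1, MTHFD2 and PYCR1) and 0 lower, beside 1.60% of all tested genes called higher and 1.01% called lower. With trametinib, 1 of 10 was called higher (PCK2) and 0 lower, beside 3.82% and 2.15% of all genes. With the combination, 6 of 10 were called higher (the same 5 as with NBT, and ALDH1L2) and 0 lower, beside 4.73% and 3.69%. For the 10 genes the median log2 ratio to control was 1.09 for NBT, 0.46 for trametinib and 1.44 for both drugs, and the median over all tested genes was -0.01, 0.08 and 0.05. These 3 comparisons share the control library. The median for both drugs fell between PYCR1 at 1.36 and ALDH1L2 at 1.52, and ALDH1L2 had only 7 reads in control and 22 in the combination. That median was as low as 1.16 with the other scalings or counts described below. Summed over the 10 genes, the level was 719 TPM in control, 1631 TPM in NBT, 938 TPM in trametinib and 1774 TPM in the combination, which corresponds to 2.27, 1.30 and 2.47 times the control sum.

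**Figure D1:**
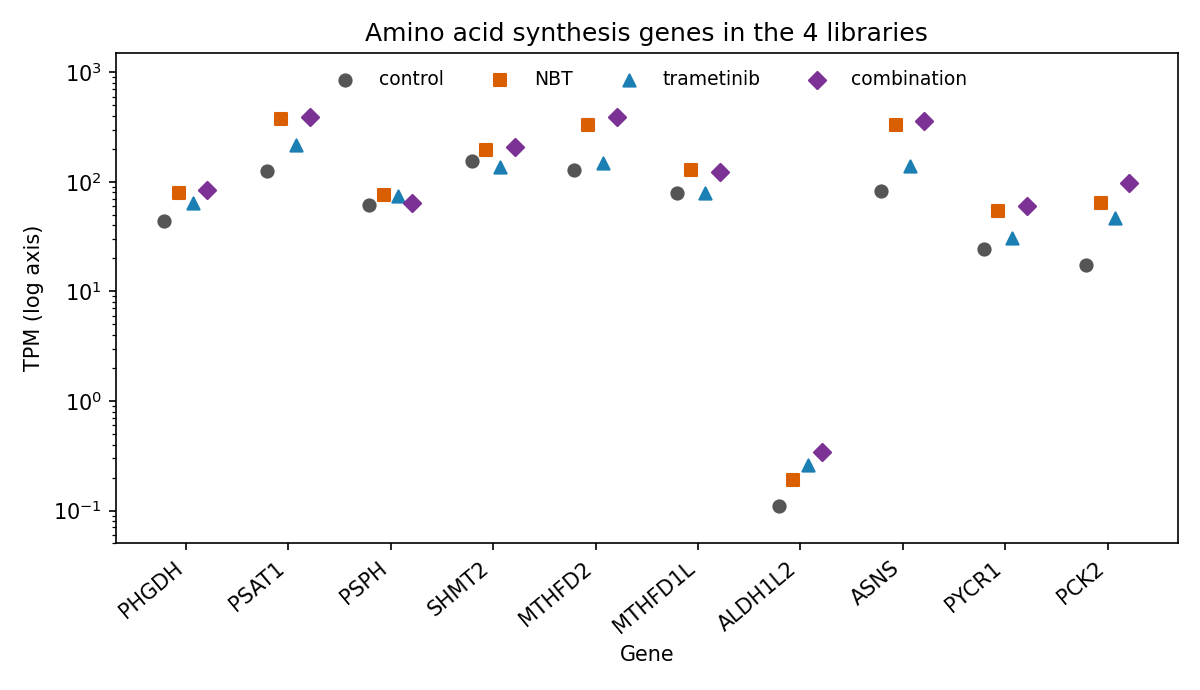
Level of each of the 10 genes in TPM (log axis) in the control, NBT, trametinib and combination libraries, 1 point per library. Control is the lowest point for 9 genes, the combination is the highest for 8, and ALDH1L2 lies far below the others at 0.11 to 0.34 TPM. Some of these orders lie within counting error. Control was not separated from the next library for PSPH, MTHFD1L and ALDH1L2, nor the combination for PHGDH, SHMT2, PYCR1 and ALDH1L2.

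ASNS (chromosome 7), which joins an amide group from glutamine to aspartate, gave the largest NBT reading of the set. It had 1590 estimated reads in control, 6701 in NBT, 2734 in trametinib and 7217 in the combination, or 82.5, 329, 140 and 358 TPM. The 2 libraries with NBT were both high and the trametinib library was intermediate. The log2 ratio to control was 2.03 for NBT (95% interval 1.95 to 2.11), 0.77 for trametinib (0.68 to 0.86) and 2.12 for the combination. The intervals cover counting error only, here and throughout. Among the 11081 genes with at least 50 reads in control or NBT, ASNS had rank 23 from the top of the NBT ratios.

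The serine pathway was uneven, with the middle enzyme moving most. PHGDH (chromosome 1), the NAD-dependent first step, had 782 reads in control, 1530 in NBT, 1170 in trametinib and 1619 in the combination, or 43.9, 79.4, 64.1 and 84.8 TPM. Its log2 ratios to control were 0.92 for NBT (0.79 to 1.04), 0.57 for trametinib (0.44 to 0.70) and 0.99 for the combination (0.86 to 1.11), so it was not called in any comparison and lay just under the limit in the last. The NBT and combination libraries did not differ for PHGDH beyond counting error. PSAT1 (chromosome 9), the aminotransferase that follows, had 2621, 8384, 4583 and 8773 reads in control, NBT, trametinib and combination, or 127, 373, 215 and 394 TPM. It was called higher with NBT at a log2 ratio of 1.63 (1.56 to 1.69) and with the combination at 1.68 (1.62 to 1.74), and its trametinib ratio was 0.79 (0.72 to 0.86). The NBT ratio of PSAT1 had rank 43 of 11081. PSPH (chromosome 7), the phosphatase that releases serine, had its highest values with the single drugs. It had 1253, 1693, 1582 and 1364 reads in control, NBT, trametinib and combination, or 61.3, 76.1, 74.8 and 63.5 TPM, so that each single drug library was above the library with both. Its combination ratio to control was 0.06, with an interval from -0.05 to 0.17 that holds 0.

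The 4 genes of the mitochondrial one-carbon route ranged from 1 of the most abundant of the set to 1 near the detection floor. SHMT2 (chromosome 12), which splits serine into glycine and a folate-bound carbon, had 3108, 4211, 2808 and 4384 reads in control, NBT, trametinib and combination, or 156, 195, 137 and 206 TPM. It was the only gene of the 10 that was lowest with trametinib, at a log2 ratio of -0.16 (-0.23 to -0.09), and its ratios with NBT and the combination were 0.39 (0.32 to 0.46) and 0.43 (0.37 to 0.50), none of them called. MTHFD2 (chromosome 2), the dehydrogenase and cyclohydrolase that acts on that carbon, had 3109, 8484, 3715 and 9836 reads, or 128, 331, 149 and 389 TPM. It was called higher with NBT at 1.40 (1.34 to 1.46) and with the combination at 1.60 (1.54 to 1.66), while its trametinib ratio was 0.24 (0.17 to 0.31). The NBT ratio of MTHFD2 had rank 68 of 11081, and control and trametinib stood well below the 2 libraries with NBT.

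MTHFD1L (chromosome 6), which releases formate for export to the cytosol, had 1865, 3084, 1993 and 2925 reads in control, NBT, trametinib and combination, or 78.7, 129, 79.5 and 123 TPM. Its log2 ratios were 0.68 for NBT (0.59 to 0.76), 0.08 for trametinib (-0.01 to 0.17) and 0.59 for the combination (0.50 to 0.67), without a call. ALDH1L2 (chromosome 12), which oxidises formyl folate and yields NADPH, had 7, 14, 19 and 22 reads, or 0.11, 0.19, 0.26 and 0.34 TPM. It was called higher with the combination at a log2 ratio of 1.52, with a wide interval from 0.31 to 3.06, and that call was lost when the FPKM values were used (0.90). At this depth no neighbouring pair of libraries in the order of ALDH1L2 differed beyond counting error.

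PYCR1 (chromosome 17), the mitochondrial reductase that forms proline, had 410, 1014, 532 and 1098 reads in control, NBT, trametinib and combination, or 24.2, 54.6, 30.5 and 59.7 TPM. It was called higher with NBT at a log2 ratio of 1.26 (1.09 to 1.43) and with the combination at 1.36 (1.19 to 1.53), and its trametinib ratio was 0.36 (0.17 to 0.55). The 2 libraries with NBT did not differ for PYCR1 beyond counting error.

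PCK2 (chromosome 14) was the only gene of the set called with each drug. It had 352 reads in control, 1439 in NBT, 981 in trametinib and 2138 in the combination, or 17.3, 64.7, 46.5 and 96.8 TPM. All 4 libraries were separated beyond counting error, in the order control, trametinib, NBT and combination. The log2 ratio to control was 1.98 for NBT (1.81 to 2.15), 1.46 for trametinib (1.29 to 1.65) and 2.54 for the combination (2.38 to 2.71), and the NBT and combination ratios had rank 27 of 11081 and rank 61 of 11207. PCK1, its cytosolic counterpart, had 4 and 3 reads in control and NBT and 0 in both libraries with trametinib, at or near the floor, so no ratio is given.

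**Figure D2:**
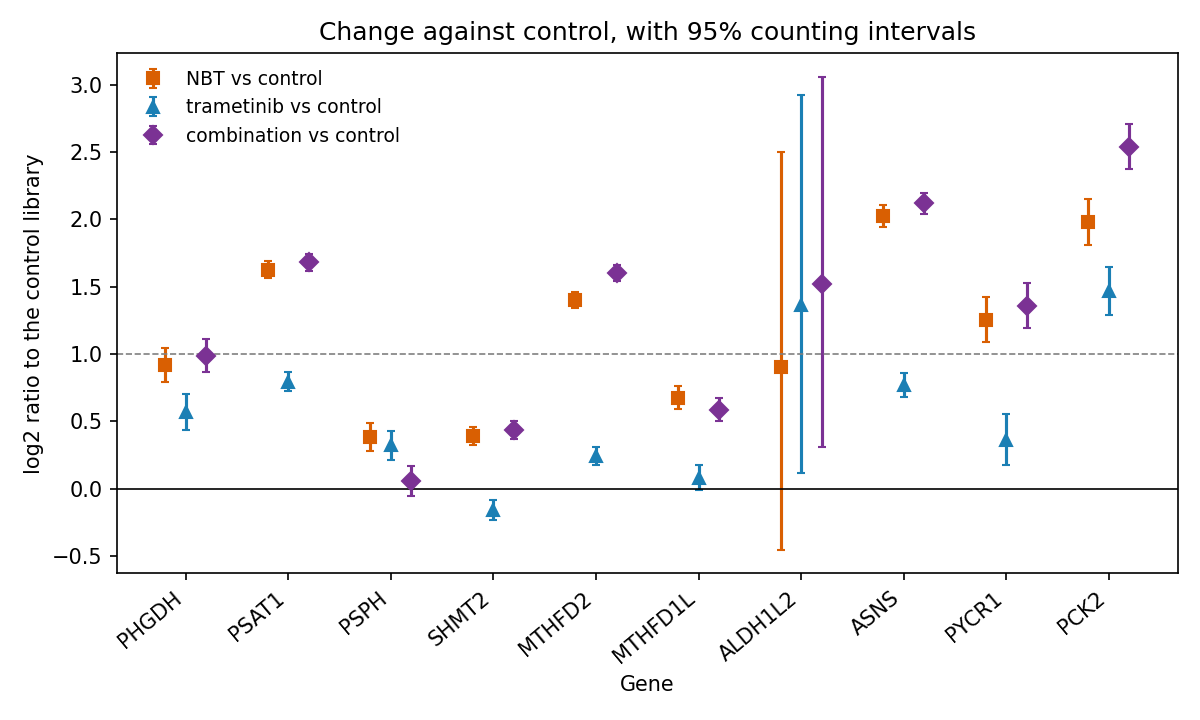
Log2 ratio of each gene to the control library for NBT, trametinib and the combination, with bars for the 95% counting interval. The dashed line marks the limit of 1, which ASNS, PCK2, PSAT1, MTHFD2 and PYCR1 passed with NBT and with the combination. ALDH1L2 passed it with the combination, with a call, and with trametinib, without a call (bar from 0.11 to 2.92). PCK2 was the only gene that passed it with trametinib with a call.

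NBT can be read a second time, in the presence of trametinib, from the pair of libraries that the NBT and control pair does not include. Comparing the combination with trametinib alone, 3 of the 10 genes were called higher (MTHFD2, ASNS and PCK2) and 0 lower, beside 2.56% of all tested genes called higher and 3.55% called lower. The log2 ratio without and then with trametinib was 1.40 and 1.35 for MTHFD2, 2.03 and 1.35 for ASNS, 1.98 and 1.07 for PCK2, 1.63 and 0.89 for PSAT1, and 1.26 and 0.99 for PYCR1. MTHFD2 thus had nearly the same NBT ratio in both settings, whereas those of ASNS, PCK2 and PSAT1 were smaller with trametinib. PYCR1 lay just under the limit, and it was called with 3 other scalings (TMM, median of ratios, and centring on the median gene). For the genes with smaller readings the ratio was 0.92 and 0.42 for PHGDH, 0.68 and 0.50 for MTHFD1L, 0.39 and 0.59 for SHMT2, 0.90 and 0.16 for ALDH1L2, and 0.38 and -0.26 for PSPH. SHMT2 was the only one with the larger value in the presence of trametinib. The median of the 10 genes was 0.74, and that of all tested genes was -0.05.

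The difference between those 2 NBT readings is also the amount by which the combination departed from the sum of the single drug log2 ratios. Of the 10 genes, 9 had a combination ratio below that sum, beside 6148 of the 11367 genes with at least 50 reads in at least 1 library. For 7 of the 10 genes the 95% interval of the departure lay wholly below 0, and for 1 wholly above 0. The share of all genes with such an interval was not computed, so these counts cannot be set against it. The departure was largest for PCK2 at -0.91 (-1.11 to -0.71), followed among the well counted genes by PSAT1 at -0.74 (-0.82 to -0.66) and ASNS at -0.67 (-0.78 to -0.57). It was -0.04 for MTHFD2, with an interval from -0.12 to 0.04, and 0.20 for SHMT2 (0.11 to 0.30). None of the 10 departed by a log2 value of 1, compared with 2.33% of the 11367 genes with at least 50 reads in at least 1 library, and the median departure was -0.57 for the 10 genes and -0.03 for those genes. The size of the former depended on the scale, at -0.33 with TPM, where 8 genes lay below 0, and -0.38 with FPKM.

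Comparing the combination with NBT alone, 0 of the 10 genes were called in either direction, beside 2.38% of all tested genes called higher and 1.99% called lower. The median log2 ratio was 0.08, against 0.03 over all tested genes. The largest well counted value was that of PCK2 at 0.56 (0.46 to 0.66), followed by MTHFD2 at 0.20 (0.16 to 0.24). PSPH had the lowest value at -0.32 (-0.43 to -0.22).

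**Figure D3:**
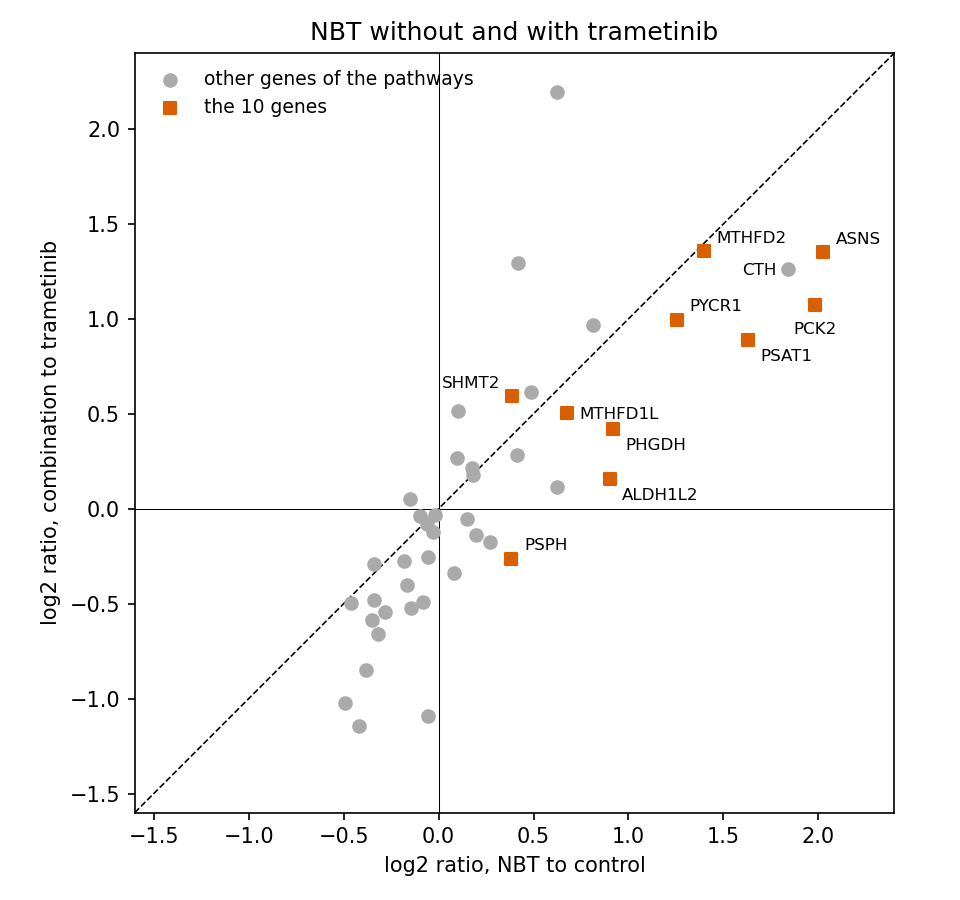
Log2 ratio of NBT to control (horizontal axis) against the log2 ratio of the combination to trametinib (vertical axis), with the 10 genes as squares, other listed genes of the pathways with at least 10 reads in a library as circles, and a dashed line of equal values. PSAT1, ASNS, PCK2 and the other listed gene CTH lie below the line at the right, MTHFD2 lies on it, and PSPH lies below 0 on the vertical axis only.

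Several of the 10 enzymes have a counterpart that performs the same reaction in the cytosol or from another gene, and the balance within these pairs shifted toward the gene of the set with NBT and with the combination. For SHMT2 over SHMT1, the cytosolic hydroxymethyltransferase, the TPM ratio was 2.71 in control, 4.68 in NBT, 1.68 in trametinib and 5.66 in the combination. SHMT1 itself had 1294, 1002, 1853 and 868 reads in that order, so that the pair moved apart with NBT and together with trametinib. On the log2 scale the read ratio changed against control by 0.81 for NBT (0.67 to 0.94), -0.66 for trametinib (-0.79 to -0.54) and 1.07 for the combination (0.93 to 1.21). MTHFD1 is the cytosolic enzyme that covers the reactions of both MTHFD2 and MTHFD1L. The TPM ratio of MTHFD1L over MTHFD1 was 0.49, 1.02, 0.54 and 1.23 in control, NBT, trametinib and combination, and that of MTHFD2 over MTHFD1 was 0.80, 2.62, 1.01 and 3.86. The log2 change of the latter was the largest of the pairs given here, at 1.68 with NBT (1.60 to 1.77) and 2.24 with the combination (2.15 to 2.32). MTHFD1 had 4815, 4097, 4547 and 3232 reads and was not called.

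MTHFD2L, the close relative of MTHFD2, had between 161 and 201 reads, and the read ratio of MTHFD2 over MTHFD2L changed by 1.30 with NBT (0.99 to 1.61) and 1.38 with the combination (1.08 to 1.68). PYCR3 is another proline reductase. The TPM ratio of PYCR1 over PYCR3 was 1.60, 3.56, 1.99 and 4.94 in control, NBT, trametinib and combination, and the read ratio changed by 1.17 with NBT (0.93 to 1.42), 0.31 with trametinib (0.05 to 0.57) and 1.64 with the combination (1.39 to 1.89). ALDH1L1, the cytosolic relative of ALDH1L2, had between 6 and 16 reads, and no ratio is given for it.

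**Figure D4:**
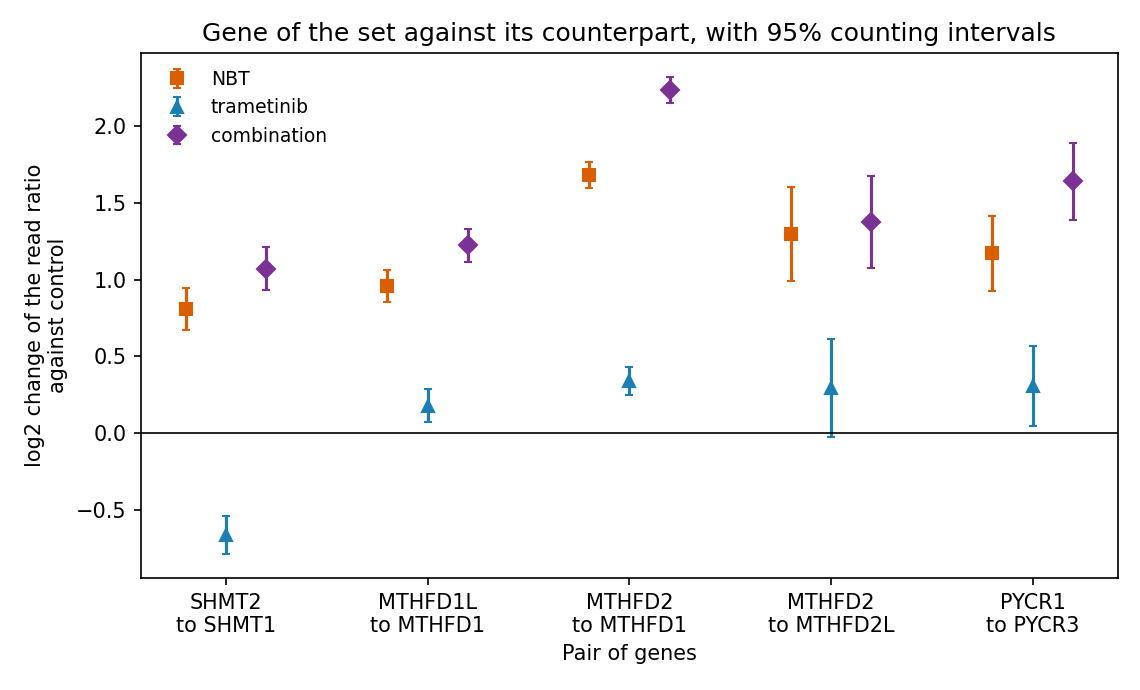
Log2 change, against control, of the read ratio between a gene of the set and its counterpart, for NBT, trametinib and the combination, with bars for the 95% counting interval. With NBT and the combination all 5 pairs shown lie above 0, while with trametinib SHMT2 to SHMT1 lies at -0.66 and MTHFD2 to MTHFD2L has an interval that holds 0.

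Of 41 other listed genes of these pathways, 40 were in the table. With NBT 1 was called higher (CTH) and 0 lower, beside 1.60% and 1.01% of all genes, with a median log2 ratio of -0.05. CTH, which makes cysteine from cystathionine, had 251, 932, 620 and 1542 reads in control, NBT, trametinib and combination. Its log2 ratios of 1.84, 1.29 and 2.55 resembled those of PCK2 in size and order. With trametinib 3 were called higher (CTH, GLUL and AMT) and 0 lower, beside 3.82% and 2.15%, with a median of 0.09. With the combination 2 were called higher (CTH and AMT) and 1 lower (TYMS), beside 4.73% and 3.69%, with a median of -0.22. AMT, a part of the glycine cleavage system, had 28, 45, 65 and 73 reads.

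Of 10 cytosolic one-carbon genes, 1 was called lower than control with the combination (TYMS) and 0 higher, where 3.69% and 4.73% of all genes were called. Their median log2 ratio was -0.30, and the counting interval lay below 0 for 7 of them and above 0 for 1. The share of all genes with such intervals was not computed, here and for the next group. By the nearest rule, calls without a log2 limit, 23.9% of all tested genes were lower and 25.8% higher. The 9 other mitochondrial one-carbon genes of the list had a median of -0.23, with the interval below 0 for 5 and above 0 for 2. The 4 mitochondrial one-carbon genes of the set had a median of 1.05. That value fell between MTHFD1L at 0.59 and ALDH1L2 at 1.52, and ALDH1L2 had only 7 reads in control and 22 in the combination. SHMT2 was at 0.43 and MTHFD2 at 1.60. TYMS, the thymidylate synthase, had 2452, 1807, 2466 and 1257 reads in control, NBT, trametinib and combination, with a combination ratio of -1.03 (-1.13 to -0.93). Against trametinib alone, the combination had 2 of the 40 listed genes called higher (CTH and GLDC) and 3 lower (SHMT1, TYMS and GLUL), beside 2.56% and 3.55% of all genes, while against NBT alone it had 0 in either direction. GLDC rested on 7 reads with trametinib and 35 with the combination. GLUL, which makes glutamine, had 1009, 1005, 2218 and 1077 reads, so that only the trametinib library was high. GOT1, which supplies aspartate and oxaloacetate in the cytosol, had 1385, 2518, 1386 and 2804 reads and log2 ratios of 0.81 with NBT and 0.95 with the combination, just under the limit. ALDH18A1, which starts proline synthesis upstream of PYCR1, had 2623, 2540, 2299 and 2315 reads, with ratios between -0.24 and -0.10.

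Among 10 regulators related to these genes, ATF4 mRNA itself was not called in any comparison, with 8712, 13221, 10493 and 13418 reads in control, NBT, trametinib and combination and log2 ratios to control of 0.55, 0.26 and 0.56. ATF4 is known to be controlled mainly at translation, which these libraries do not measure. With NBT 3 of the 10 were called higher, where 1.60% of all genes were, namely DDIT3 (CHOP) at 2.67, TRIB3, a pseudokinase that binds ATF4, at 2.02 and CEBPG, a C/EBP partner of ATF4, at 1.03. With trametinib, where 3.82% of all genes were called higher and 2.15% lower, DDIT3 was called higher at 1.16 and MYC lower at -2.43. With the combination DDIT3 (3.66), TRIB3 (2.28), EIF2AK3, which encodes the stress kinase PERK (1.53), and CEBPG (1.44) were called higher, 4 of the 10 beside 4.73% of all genes. The other listed eIF2α kinases, EIF2AK4, EIF2AK1 and EIF2AK2, were not called there, at -0.63, -0.40 and -0.01. MYC, which is also known to drive serine and one-carbon genes, had 913, 1297, 170 and 586 reads, with the lowest of these values in the trametinib library. MYC was called higher in the combination than with trametinib alone (1.73) and lower than with NBT alone (-1.16). The part of any of these regulators in the values of the 10 genes was not tested.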

How the data were processed

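RNA of 4 libraries of cells labelled MIA PaCa-2, 1 per condition, was sequenced on a BGISEQ platform per the study's methods. The submitters' processing notes list Bowtie2 2.2.5, RSEM 1.2.8 and the build hg38. The annotation used was not given in the sources used here, and the extraction notes name a kit that removes bacterial ribosomal RNA. The deposited estimated counts, made by the authors for each gene and RefSeq transcript, share reads among transcripts and genes, and 53.9% of genes, 7 of the 10 genes described among them, had a count that was not whole (tolerance 0.005). The deposited TPM values scale by length and to a fixed sum per library, and the deposited FPKM values scale by length and library size. TPM and FPKM were used for levels and as alternatives.

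Estimated counts were rounded to whole numbers. Log2 ratios used counts with 0.5 reads added, divided by the library sum. Intervals are exact Clopper-Pearson intervals of 95% on the ratio of 2 counts, or Poisson-based normal intervals where 4 counts enter, and cover counting error only. Calls used a two-sided exact binomial comparison with Benjamini-Hochberg adjustment at 0.05 over all genes that had at least 1 count in 1 of the 2 libraries, and a log2 limit of 1. This compares 2 libraries, not conditions. Ranks used genes with at least 50 counts in either library. Other scalings and call rules used edgeR 4.0.16 and DESeq2 1.42.0 in R 4.3.3, with scipy 1.17.1 for the exact intervals, and the scripts were tested on simulated data. The genes named are the 10 genes, listed pathway genes, regulators, MAPK genes and line markers, the counterparts, and the 5 genes nearest to the median pattern of the 10 among genes with at least 500 counts in a library. The members and lists were chosen with earlier results of these data known. KRT19, INS, PRSS1 and PRODH were not analysed here, and a further counterpart comparison is not reported here. There were 0 unmapped columns.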

Additional observations from a re-analysis of the deposited data

Results flagged for a closer look

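PSPH was the only one of the 10 genes whose 2 readings of a drug lay on opposite sides of 0 with counting intervals that excluded 0. The log2 ratio of NBT was 0.38 (0.28 to 0.49) without trametinib and -0.26 (-0.37 to -0.16) with it. The log2 ratio of trametinib was 0.32 (0.22 to 0.43) without NBT and -0.32 (-0.43 to -0.22) with it. Both views give the same difference of -0.65, since they use the same 4 libraries. With 1 library per condition the difference between conditions was not tested. Of the 25 listed PSPH transcripts, 11 had reads in all 4 libraries, and the count of this gene was not whole.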

How the results depend on the processing

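No paired analysis was possible because each condition has 1 library, and for the same reason no library could be left out. Scaling mattered less than the rule for calls. With 7 other scalings or counts (TMM, median of ratios, TPM, FPKM, 5 reads added, summed transcripts, median centring) the median log2 ratio of the 10 genes stayed between 1.01 and 1.09 for NBT, between 0.39 and 0.46 for trametinib, and between 1.16 and 1.44 for both drugs. The genes called numbered 5 with NBT and 1 with trametinib under all 7 of them, 5 to 6 with the combination, and 3 to 4 for the combination against trametinib. Without a log2 limit, 9 genes were called higher with NBT and 0 lower, beside 16.82% and 18.65% of all tested genes. With trametinib 7 were higher and 1 lower (SHMT2), beside 25.22% and 17.47%. With the combination 9 were higher and 0 lower, beside 25.78% and 23.86%. Against trametinib, the combination had 8 higher and 1 lower (PSPH), beside 20.67% and 24.78%. Against NBT, the combination had 4 higher and 2 lower (PSPH and MTHFD1L), beside 20.38% and 17.03%. A limit of 2 left 1 gene with NBT, 0 with trametinib, 2 with the combination and 0 for the combination against trametinib. The shares of all genes called higher were then 0.51%, 1.40%, 1.53% and 0.64%. With the log2 limit alone, trametinib had 2, beside 11.8% of all genes called higher. An assumed biological coefficient of variation of 0.2 left 3 with NBT, 1 with trametinib, 5 with the combination and 0 for the combination against trametinib. The shares of all genes called higher were then 0.32%, 1.25%, 1.82% and 0.87%. A coefficient of 0.4 left 0 with NBT, 0 with trametinib, 0 with the combination and 0 for the combination against trametinib. Over all genes, those called higher with NBT numbered 254 by the rule used, 2672 without a limit, 1168 with the limit alone, 81 with a limit of 2, and 51 and 3 with the assumed coefficients of 0.2 and 0.4. With a departure limit of 0.5 in place of 1, 5 of the 10 genes departed from additivity, 4 of them with an interval that excluded 0 (the other, ALDH1L2, had one from -2.29 to 0.80), beside 12.1% of the 11367 genes with at least 50 reads. The counts limit ALDH1L2 most, and no value here carries an estimate of variation between cultures.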

Other observations

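The genes whose 3 log2 ratios to control lay closest to the median pattern of the 10 genes, among 7979 genes with at least 500 reads in a library, were CEBPG, ZFAND2A, TES, LMO4 and SELENOK. CEBPG was the nearest, at a Euclidean distance of 0.19, with 905, 1915, 1109 and 2569 reads in control, NBT, trametinib and combination. ZFAND2A, known as a gene induced by arsenite and other proteotoxic stress, followed at 0.20 with 473, 975, 584 and 1367 reads. TES was at 0.21, LMO4 at 0.22 and SELENOK, an endoplasmic reticulum selenoprotein, at 0.23. The measure of likeness rests on 3 ratios from 4 libraries that share 1 control.

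The estimated split of reads among RefSeq transcripts kept the same leading transcript in all 4 libraries for 6 of the 10 genes (PHGDH, PSAT1, SHMT2, MTHFD2, ASNS and PCK2). The leading transcript of SHMT2, NM_005412.6, held 73.6% of the SHMT2 reads in control, 61.3% in NBT, 68.5% in trametinib and 47.4% in the combination. That of PSAT1, NM_058179.4, held between 92.8% and 98.2%, and that of PHGDH, NM_006623.4, between 96.8% and 98.0%. For ASNS, NM_001178077.1 held between 40.4% and 46.7%, so that the higher ASNS total was spread over several transcripts. The leading transcript differed between libraries for PSPH, MTHFD1L, ALDH1L2 and PYCR1. These shares are estimates made by the authors' quantification from reads that fit several transcripts, and their error is not known.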
